A study of Mus musculus with 8 samples.

Results

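The small leucine-rich proteoglycans are a family of matrix proteins, and the 10 examined here were Dcn, Bgn, Lum, Fmod, Ogn, Aspn, Prelp, Omd, Podn and Ecm2. The rule that defines them is membership of the gene family and uses no measured value, although earlier results of these data were known when the family was picked. They are 10 of the 53801 genes in the table. RNA was sequenced from stromal cells of MO5 tumours, grown under the skin of young adult C57Bl/6 mice from B16 melanoma cells that carry the ovalbumin gene. The tumours were taken in the second week after implantation. Cells bearing PDPN and PDGFRα and lacking CD45 and CD31 were sorted by GFP, which gave 4 libraries of GFP+ (ADAM12+) and 4 of GFP- (ADAM12-) stromal cells. The labels give the GFP state as the genotype. As the study describes the sort, both groups came from mice with the same transgene, a bacterial artificial chromosome in which Adam12 sequences drive Cre and GFP, so that GFP reports the transgene's activity at the time of the sort and not ADAM12 protein. The study counts 4 replicates, its n standing for mice unless stated otherwise. The labels do not tie a library to a mouse, so the errors below are those between libraries.

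Small leucine-rich proteoglycans are secreted core proteins built mostly of leucine-rich repeats, which fold into a curved shape that lies on the surface of collagen fibrils. Many carry chondroitin, dermatan or keratan sulfate chains, and they set the width and spacing of fibrils. Decorin and biglycan, the best studied, also bind growth factors and cell surface receptors, and decorin is a widely used marker of fibroblasts in skin and in tumour stroma. The family is divided into classes by sequence: Dcn, Bgn, Aspn and Ecm2 in class I, Lum, Fmod, Prelp and Omd in class II, Ogn in class III and Podn in class V.

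Many genes of the family lie side by side. On the GRCm38 assembly Ecm2 (ENSMUSG00000043631, 13:49504810-49532789), Aspn (ENSMUSG00000021388, 13:49544443-49567565), Omd (ENSMUSG00000048368, 13:49582462-49592822) and Ogn (ENSMUSG00000021390, 13:49608046-49624501) follow each other on the plus strand of chromosome 13. They are separated by 11653, 14896 and 15223 bases, and all 4 lie within the span of Cenpp, a centromere protein gene on the opposite strand. Dcn (ENSMUSG00000019929, 10:97479609-97518143) and Lum (ENSMUSG00000036446, 10:97565128-97572703) are neighbours on the plus strand of chromosome 10, 46984 bases apart, with Kera a further 34175 bases on. Prelp (ENSMUSG00000041577, 1:133910304-133921414, minus strand) and Fmod (ENSMUSG00000041559, 1:134037254-134048277, plus strand) are neighbours on chromosome 1. Podn lies on the minus strand of chromosome 4 (ENSMUSG00000028600, 4:108014791-108096445) and Bgn on the plus strand of the X chromosome (ENSMUSG00000031375, X:73483602-73495933).

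The bases before the transcription start are shown for 4 members, taken from RefSeq on GRCm38.p6: Ogn, Bgn and Podn, for which the groups differed, and Aspn, the chromosome 13 neighbour of Ogn for which they did not pass the test. A table of promoters held 9 entries for 8 of the 10 members, 2 of them for Podn, and the 250 bases before each start were searched on both strands. Capitals mark every match to a core promoter element written TATAAA, to the binding motif of AP-1 factors, TGANTCA, to the box bound by NF-Y, CCAAT, or to the motif of Sp1 factors, GGGCGG. Where matches overlap, their capitals run together. Each sequence is written 5′ to 3′ on the strand of its gene.

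Ogn, 13:49607765-49608014, plus strand: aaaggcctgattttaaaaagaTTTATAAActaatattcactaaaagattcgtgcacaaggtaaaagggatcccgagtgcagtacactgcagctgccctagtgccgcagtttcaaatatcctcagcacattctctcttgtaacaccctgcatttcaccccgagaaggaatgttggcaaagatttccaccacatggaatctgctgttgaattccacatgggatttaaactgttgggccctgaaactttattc
Aspn, 13:49544193-49544442, plus strand: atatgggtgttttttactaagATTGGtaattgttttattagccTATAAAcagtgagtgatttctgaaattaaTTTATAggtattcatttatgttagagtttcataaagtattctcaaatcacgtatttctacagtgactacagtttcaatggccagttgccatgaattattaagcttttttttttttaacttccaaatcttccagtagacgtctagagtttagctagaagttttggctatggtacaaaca
Bgn, X:73483351-73483600, plus strand: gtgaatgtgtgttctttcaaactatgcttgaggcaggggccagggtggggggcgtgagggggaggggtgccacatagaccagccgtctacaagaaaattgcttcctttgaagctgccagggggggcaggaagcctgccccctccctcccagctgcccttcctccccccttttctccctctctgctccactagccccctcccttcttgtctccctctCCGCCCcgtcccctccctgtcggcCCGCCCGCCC
Podn, 4:108031955-108032204, minus strand: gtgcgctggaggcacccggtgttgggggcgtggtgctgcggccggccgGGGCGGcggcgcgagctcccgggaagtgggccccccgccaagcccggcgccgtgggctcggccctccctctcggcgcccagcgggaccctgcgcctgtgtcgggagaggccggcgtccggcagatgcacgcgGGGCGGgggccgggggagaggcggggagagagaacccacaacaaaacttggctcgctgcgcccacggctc

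These windows differed in GC content, from 30.0% before Aspn and 42.0% before Ogn to 64.4% before Bgn and 78.0% before this start of Podn, against a median of 52.4% over the 32851 promoters of the table. TATAAA was present before Aspn and Ogn, 2 of the 9 entries, and in 12.4% of all promoters. In Ogn the matches on the 2 strands overlap and form a single capital run. GGGCGG was present in 3 of the 9 entries, those of Podn, Ecm2 and Bgn, and in 32.7% of all promoters. No entry held TGANTCA, which 6.75% of all promoters held, and CCAAT was found in 2 entries and in 33.9% of all. A match is a description of the letters in this window.

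The libraries held from 883144 (GFP- replicate 3) to 31666734 reads assigned to genes, and values below are normalised read counts, the reads of a gene divided by the DESeq2 size factor of its library. The transcript of the reporter's gene, Adam12, averaged 1362 ± 357 in GFP- against 2302 ± 484 in GFP+ libraries (SD, n = 4 each), and its log2 fold change (GFP+ over GFP-) of 0.75 ± 0.24 (SE) passed the test (DESeq2 adjusted p = 0.0266, edgeR adjusted p = 0.0643). In the fits that each left out 1 library, the Adam12 call was lost in 4 of 8, those without replicate 2 or 4 of GFP+ or replicate 3 or 4 of GFP-. Defining genes of stromal fibroblasts were abundant in every library, and Pdgfra and Pdpn, whose proteins the sort used, were called higher in GFP+ cells with log2 fold changes of 1.32 and 0.70 (DESeq2 adjusted p = 1.93e-12 and 0.0134). The Pdpn call was lost without replicate 3 of GFP+ and without replicate 1 or 4 of GFP-. Against the label of sorted stromal cells, 15 of 15 melanocyte genes had reads in both groups. All 15 were called lower in GFP+ cells, as were 4.76% of all genes tested. Their summed normalised count was 30358 to 89857 in GFP- and 5928 to 15522 in GFP+ libraries. Fewer cells of a type and less RNA per cell cannot be told apart in such bulk libraries.

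Transcripts of 5 of the 10 members were called higher in ADAM12+ cells by DESeq2 (adjusted p under 0.05), against 4.66% of all 15283 genes tested, and 0 of 10 were called lower, against 4.76% (9.42% in either direction). The 5 were Dcn, Bgn, Lum, Ogn and Podn, with differences of 2.04-fold to 2.49-fold, and these were also the 5 for which every GFP+ library lay above every GFP- library, as it did for 6.37% of the genes tested. The reverse order was seen for 0 of 10 members and for 5.95% of the genes tested. The edgeR quasi-likelihood test called the same 5 (edgeR adjusted p under 0.05, 2.83% of the 14323 genes tested called higher). All 10 members received an adjusted p. Of the log2 fold changes 9 of 10 were positive, and their median was 0.97 beside -0.0082 over all genes tested. With libraries scaled to 13 fibroblast genes, 6 of 10 were positive and 0 of 10 were called, where 0.612% of the 13736 genes tested were called higher. That scaling moved the median of all genes by -0.67 (log2). With a melanocyte score as a covariate, 9 of 10 were positive and again 0 of 10 were called. The covariate fit called few genes of the whole table, as counted below.

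**Figure D1:**
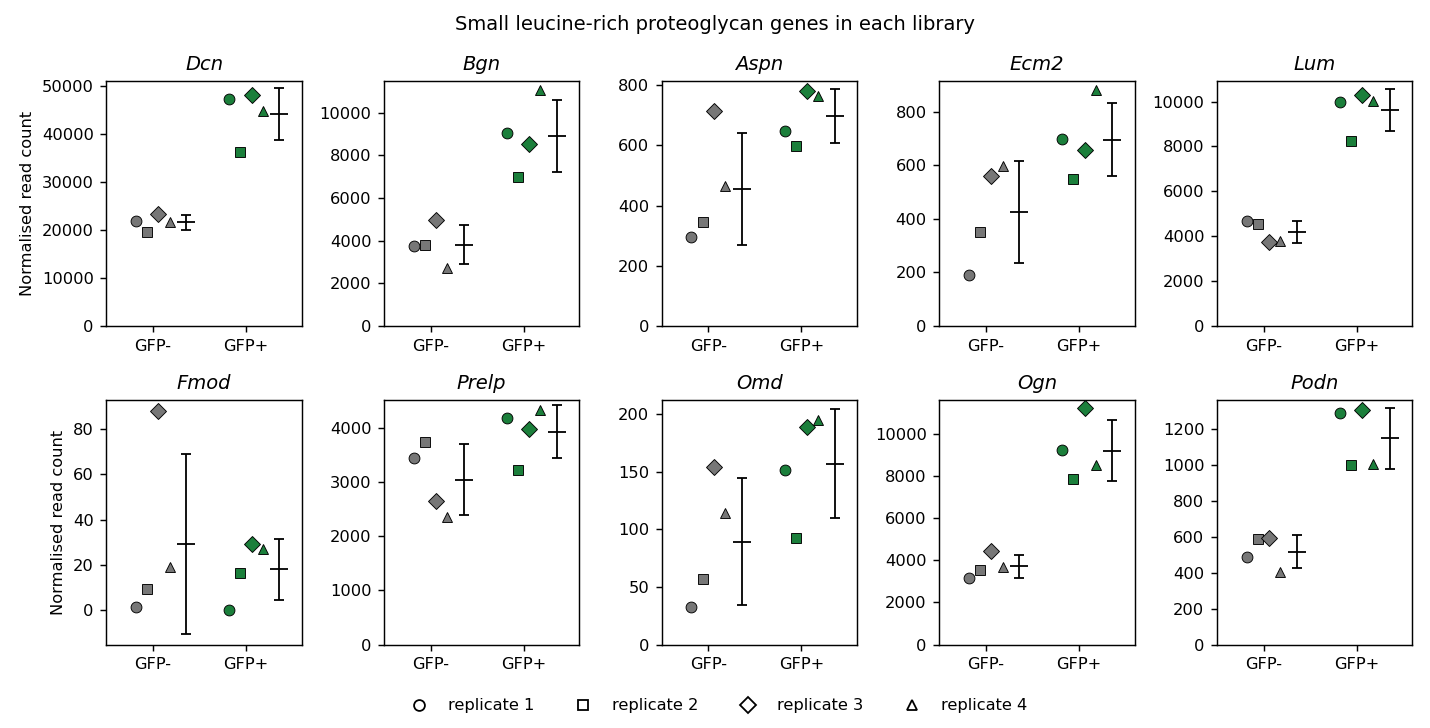
Normalised read counts of the 10 genes in each of the 8 libraries. Each panel is 1 gene with its own vertical axis starting at 0 (at a negative value for Fmod, to hold the error bar), symbols mark replicates, grey is GFP-, green is GFP+, and the bars give mean and SD of 4 libraries. The grey and green points do not overlap for Dcn, Bgn, Lum, Ogn and Podn and overlap for the other 5 genes.

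In class I, Dcn and Bgn were called. Dcn encodes decorin, and its normalised counts were 21935, 19610.1, 23403 and 21693 in GFP- replicates 1 to 4 and 47215, 36253, 48186 and 44813 in GFP+ replicates 1 to 4. The lowest GFP+ library, replicate 2, stood well above the highest GFP- library, and the 4 GFP- libraries lay close together. The log2 fold change of Dcn was 1.03 ± 0.14 (SE), with DESeq2 adjusted p = 1.68e-10 and edgeR adjusted p = 0.00141. Bgn, which encodes biglycan, a core protein that can carry a pair of chondroitin or dermatan sulfate chains and that engages Toll-like receptors when soluble, had 3747, 3798, 4955 and 2723 normalised counts in GFP- and 9035, 6984, 8551 and 11066 in GFP+ replicates. GFP- replicate 4 was the lowest library and GFP+ replicate 4 the highest. Bgn had a log2 fold change of 1.23 ± 0.22 (SE), DESeq2 adjusted p = 1.52e-06 and edgeR adjusted p = 0.00295.

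The other class I genes, Aspn and Ecm2, were not called. Aspn encodes asporin, which binds collagen and TGF-β and has a stretch of aspartate residues at its start. It had 297, 347, 714 and 464 normalised counts in GFP- and 648, 598, 782 and 766 in GFP+ replicates, and only GFP- replicate 3 reached into the GFP+ range. The log2 fold change of Aspn, 0.67 ± 0.28 (SE), had a 95% interval of 0.13 to 1.21 and did not pass the test, with DESeq2 adjusted p = 0.114 and edgeR adjusted p = 0.164. Without GFP- replicate 3, the library with the fewest reads, Aspn had a log2 fold change of 0.91 and DESeq2 adjusted p = 0.00142. With the replicate number as a block its DESeq2 adjusted p was 0.0295, and limma voom gave an adjusted p of 0.0184. Ecm2, a matrix protein gene with leucine-rich repeats, had 190 to 599 normalised counts in GFP- against 549 to 881 in GFP+ libraries, ranges that overlapped. For Ecm2 the log2 fold change, 0.73 ± 0.34 (SE), had a 95% interval of 0.06 to 1.41 and DESeq2 adjusted p = 0.186.

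In class II, Lum was called and the other 3 genes were not. Lum encodes lumican, a keratan sulfate proteoglycan that spaces collagen fibrils in cornea and skin. Lum had 4690.01, 4556, 3758 and 3780.3 normalised counts in GFP- and 9964, 8232, 10307 and 10014 in GFP+ replicates, so that the groups were narrow and far apart, with GFP+ replicate 2 below the other GFP+ libraries. Its log2 fold change of 1.19 ± 0.15 (SE) had the smallest adjusted p of the 10 members, 9.64e-13 by DESeq2, and edgeR adjusted p = 0.00114. Prelp encodes a core protein with an arginine-rich and proline-rich end that binds heparan sulfate chains. It had 3451, 3736, 2648 and 2361 normalised counts in GFP- and 4195, 3234, 3991 and 4328 in GFP+ replicates. GFP+ replicate 2 lay below GFP- replicates 1 and 2. The log2 fold change of Prelp was 0.36 ± 0.20 (SE), with a 95% interval of -0.02 to 0.75 and DESeq2 adjusted p = 0.274.

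Omd, which encodes osteoadherin, a protein of mineralised matrix, had 32.6, 56.6, 154 and 114 normalised counts in GFP- and 151, 92.9, 189 and 195 in GFP+ replicates. The groups overlapped, and the log2 fold change of 0.91 ± 0.48 (SE) had a 95% interval of -0.04 to 1.86 and DESeq2 adjusted p = 0.263. Fmod encodes fibromodulin, which shares a collagen binding region with lumican and takes part in collagen cross-linking. It was close to the detection limit, with 58 reads over the 4 GFP- and 158 reads over the 4 GFP+ libraries. Its normalised counts were 1.36, 9.32, 87.9 and 18.9 in GFP- replicates. In GFP+ replicates they were 0, 16.3, 29.2 and 27.2. The value of 87.9 came from GFP- replicate 3, in which 3 reads correspond to 33.0 normalised counts, and the 0 in GFP+ replicate 1 allows a level of up to 4.17 normalised counts (3 reads, counting error only). Since the log2 fold change, -0.50 ± 1.19 (SE), had a 95% interval of -2.84 to 1.84, no difference in Fmod was detectable at this depth (DESeq2 adjusted p = 0.881). The sign of the Fmod value was positive under limma voom and in the fits without GFP+ replicate 1 or GFP- replicate 3.

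Classes III and V were represented by 1 gene each, and both were called. Ogn encodes osteoglycin, also called mimecan, a keratan sulfate core protein of connective tissue and vessel walls that takes part in collagen fibril formation. Ogn had 3157, 3559, 4472 and 3683 normalised counts in GFP- and 9237, 7866, 11255 and 8556 in GFP+ replicates. It had the largest log2 fold change of the members, 1.32 ± 0.17 (SE), with DESeq2 adjusted p = 2.46e-11 and edgeR adjusted p = 0.00114, and its interval overlapped those of the other called members. Podn, which encodes podocan, a collagen-binding protein, had 489.8, 589, 593 and 403 normalised counts in GFP- and 1290.1, 1000.4, 1306 and 1008 in GFP+ replicates. In Podn the GFP+ libraries fell into a higher pair, replicates 1 and 3, and a lower pair, replicates 2 and 4, both above every GFP- library. The log2 fold change of Podn was 1.17 ± 0.21 (SE), with DESeq2 adjusted p = 1.12e-06 and edgeR adjusted p = 0.00341.

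Some libraries tended to be high or low for many members. GFP- replicate 3 was the highest GFP- library for 7 of the 10 genes, and GFP+ replicate 2 was the lowest GFP+ library for 9 of the 10. The highest GFP+ library was replicate 3 for 6 genes and replicate 4 for the other 4. Summed over the 10 members, the normalised counts were 37991, 36612, 41345 and 35838 in GFP- and 82434, 64825, 85254 and 81653 in GFP+ replicates. As a share of all assigned reads the members took 0.383% ± 0.0324 in GFP- against 0.702% ± 0.0690 in GFP+ libraries (SD, n = 4 each). The GFP- libraries ran from 0.356% to 0.426% and the GFP+ libraries from 0.617% to 0.769%, without overlap, and the exact 95% binomial interval of the shallowest library was 0.0273 percentage points wide, which covers counting error only. Dcn alone held 57.1% ± 2.88 of the members' reads in GFP- against 56.2% ± 1.01 in GFP+ libraries (SD, n = 4 each), ranges that overlapped.

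**Figure D2:**
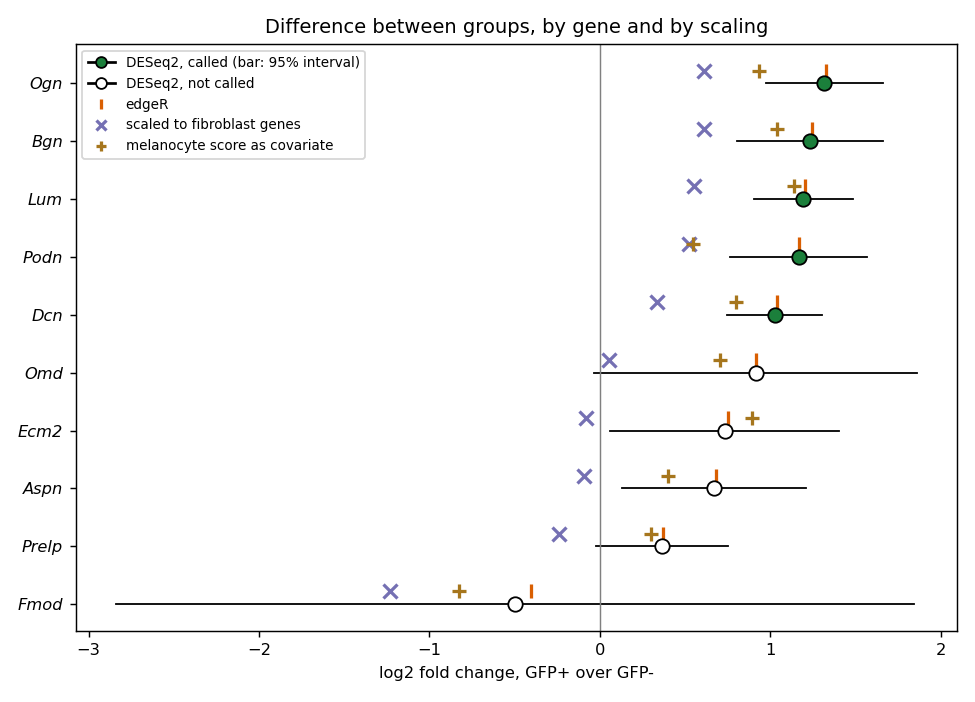
Log2 fold change of each gene, GFP+ over GFP-. Circles with bars are the DESeq2 values with their 95% intervals, filled where called, orange ticks the edgeR values, purple crosses the DESeq2 values with libraries scaled to 13 fibroblast genes, and brown plus signs those with a melanocyte score as a covariate. Filled circles lie between 1.03 and 1.32, and for those 5 genes the crosses lie between 0.34 and 0.61.

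The calls were next set beside the fibroblast and melanocyte genes that moved with the groups. The summed normalised count of 15 fibroblast marker genes was 777514, 766391, 585448 and 340323 in GFP- and 1001900, 870163, 946496 and 851950 in GFP+ replicates. Of the 15, 7 were called higher and 0 lower, against 4.66% and 4.76% of all genes tested. GFP- replicate 4 had the lowest fibroblast sum and the highest melanocyte sum. Its sum over the proteoglycan genes, 35838, was also the lowest of the GFP- libraries, by a small step from 36612 in replicate 2. Dcn held 60.5% of the members' reads in that library, while Bgn, Prelp and Podn were at their lowest GFP- value there. Col3a1 and Col1a1 gave 102096 and 64961 of its fibroblast sum. Pdgfra and Pdpn were also lowest there, at 4706 and 1609, beside 5485 and 1727 in the next lowest GFP- library of each. When the libraries were scaled to 13 fibroblast genes, the log2 fold changes were 0.34 for Dcn, 0.61 for Bgn, 0.55 for Lum, 0.61 for Ogn and 0.52 for Podn, with DESeq2 adjusted p from 0.134 to 0.430, and 0 of 10 members were called (0.612% of 13736 genes tested were called higher). The values for Aspn, Prelp and Ecm2 turned negative, at -0.09, -0.24 and -0.08. In this fit the SE of Dcn rose from 0.143 to 0.312 and that of Lum from 0.149 to 0.279. Of the 13 genes, 5 were themselves called higher in GFP+ cells. They include Col1a1, Col1a2, Col3a1, Col5a1, Col6a1, Col6a2 and Col6a3, which also stand in the collagen list below. Genes that set the scale cannot be tested against it.

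With a melanocyte score as a covariate, 0 of 10 members and 48 genes in all were called. The log2 fold changes of the 5 genes were then 0.80 for Dcn, 1.04 for Bgn, 1.14 for Lum, 0.93 for Ogn and 0.54 for Podn, with DESeq2 adjusted p between 0.0889 and 1.00. The SE of Dcn rose from 0.143 to 0.282 and that of Lum from 0.149 to 0.314 in this fit, in which the score and the group move together. The part of melanocyte transcripts in the differences cannot be told apart from that of the group with these libraries. Relative to the geometric mean of the fibroblast genes within each library, the groups overlapped for 9 of 10 members. Podn was the exception, with a GFP+ value higher by 0.56 (log2) and no overlap, while on that scale 0.805% of all genes tested had every GFP+ library above every GFP- library and 17.3% the reverse.

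**Figure D3:**
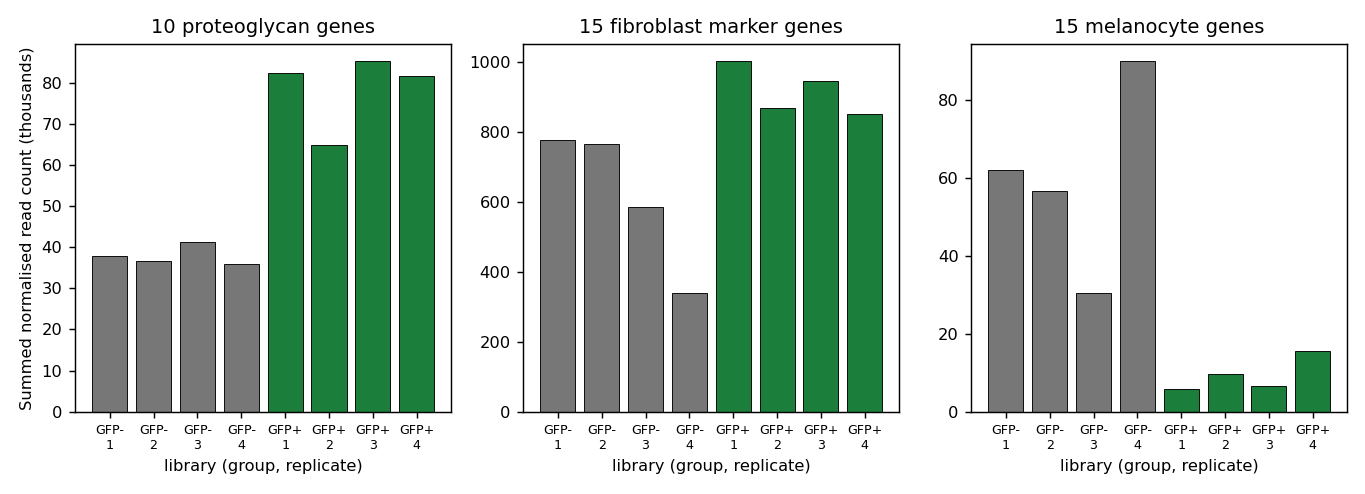
Summed normalised read counts (axis in units of 1000) of the 10 proteoglycan genes, of 15 fibroblast marker genes and of 15 melanocyte genes in each library. Grey bars are GFP- and green bars GFP+ libraries, and each panel has its own axis from 0. The proteoglycan sum is 35838 to 41345 in GFP- libraries. In GFP- replicate 4 it is at its lowest, as is the fibroblast sum (340323), and the melanocyte sum is at its highest (89857).

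Markers of other cell types were summed in the same way, and their part in the differences was not tested. The counts of called markers stand beside 4.66% of all genes tested called higher and 4.76% called lower. The summed normalised count of leukocyte genes was 881 to 5615 in GFP- and 964 to 4329 in GFP+ libraries, with 0 of 11 tested genes called. Endothelial genes summed to 1492 to 2923 and 1892 to 3549, and of 6 tested genes only Vwf, the von Willebrand factor gene, was called, lower in GFP+ cells (means of 121 in GFP- and 11.8 in GFP+ libraries, log2 fold change -3.30, DESeq2 adjusted p = 3.77e-05). Summed counts of pericyte and smooth muscle genes were 505 to 1176 and 722 to 1574, with 1 of 8 called, Abcc9, higher (DESeq2 adjusted p = 0.0493, edgeR adjusted p = 0.0975). Vwf and Abcc9, and Bglap, Ibsp and Fabp4 below, were named after their values were seen. Schwann cell genes, of which Sox10 and S100b are also melanocyte genes, summed to 1198 to 3155 in GFP- and 274 to 701 in GFP+ libraries, and 5 of 6 were called lower. Genes of tendon, cartilage and bone, tissues rich in Fmod and Omd, summed to 494 to 637 and 433 to 519, with 0 of 5 called and with Bglap and Ibsp, markers of bone-forming cells, at 0 in every library. Adipocyte genes summed to 30.5 to 136 and 144 to 591. Of 2 tested, 1 was called, Fabp4, a fatty acid carrier gene, higher (log2 fold change 2.10, DESeq2 adjusted p = 0.00291, edgeR adjusted p = 0.0401). Keratinocyte genes (33.0 to 331 and 37.7 to 83.7) and skeletal muscle genes (78.1 to 267 and 80.5 to 205) had 0 of 3 called each.

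Levels of the members were compared with each other as normalised counts per kilobase of exon, the length being the union of a gene's annotated exons. In GFP+ cells the order of these levels was Dcn (7557 ± 930.3), Lum (3933 ± 385), Ogn (3596 ± 570.02), Bgn (1461 ± 276), Prelp (1089 ± 135), Aspn (297 ± 38.1), Podn (269.6 ± 39.8), Ecm2 (123 ± 24.3), Omd (69.9 ± 20.9) and Fmod (5.50 ± 4.04; SD, n = 4 for each). The libraries overlapped between Lum and Ogn, between Bgn and Prelp and between Aspn and Podn, and did not overlap between the other neighbours in this order. In GFP- cells the order was the same except that Prelp (843 ± 179.8) came before Bgn (624 ± 149.6), and there the steps from Dcn to Lum, from Ogn to Prelp and from Bgn to Aspn were the 3 without overlap. The order depended on the length used. With the longest transcript as the length, Bgn (1428 in GFP- and 3342 in GFP+ cells) came before Prelp in both groups and overlapped Ogn in both, and Podn (317) came before Aspn (299.95) in GFP+ cells.

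**Figure D4:**
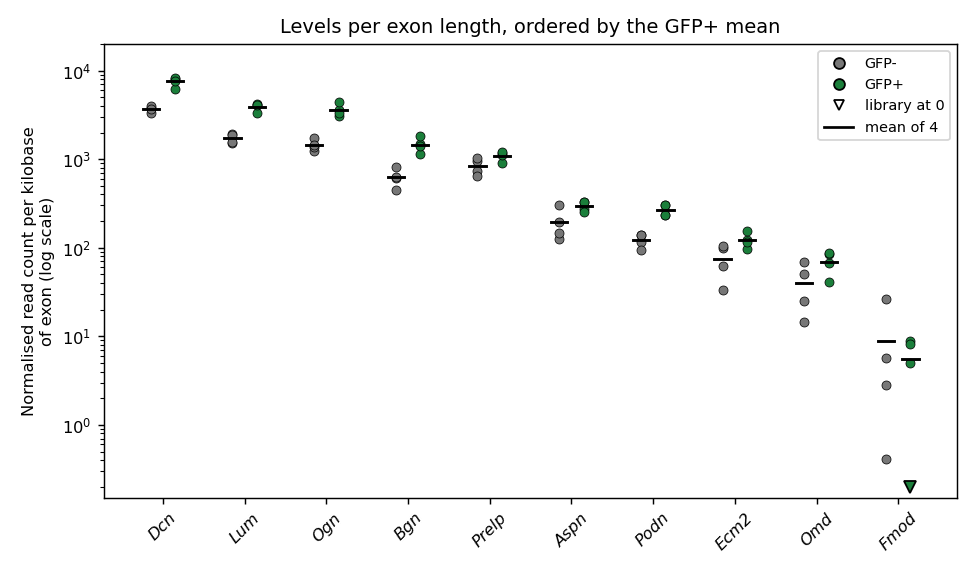
Normalised read count per kilobase of exon for each gene, on a log scale, ordered by the GFP+ mean. Dots are libraries (4 per group), lines are means, and a triangle marks the library at 0. Levels run from 7557 for Dcn to 5.50 for Fmod in GFP+ cells.

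Ratios between 3 pairs of members were compared within libraries, since such ratios do not depend on how the libraries are scaled. The log2 ratio of Aspn to Ogn was -3.41, -3.36, -2.64 and -2.99 in GFP- and -3.83, -3.72, -3.85 and -3.48 in GFP+ replicates, and the groups did not overlap. The means were -3.10 ± 0.36 and -3.72 ± 0.17 (SD, n = 4 each), a difference of -0.62 with a two-sided exact permutation p of 0.0286 (adjusted over the 3 ratios, 0.0857), the smallest that 70 divisions allow. Within the chromosome 13 group, then, the ratio was lower in every GFP+ library, and the adjusted p missed the threshold. The log2 ratio of Bgn to Dcn was -2.54 ± 0.33 in GFP- and -2.32 ± 0.21 in GFP+ libraries (SD, n = 4 each), a difference of 0.22 with an exact permutation p of 0.371 (adjusted 0.371). For Fmod to Lum the difference was -1.68, with the same exact permutation p of 0.371 and low Fmod counts behind it.

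Genes that overlap or adjoin the members were examined for reads that could be shared. Counting used the strand, and Cenpp, opposite to the chromosome 13 group, averaged 39.3 ± 26.5 normalised counts in GFP- against 89.6 ± 46.5 in GFP+ libraries (SD, n = 4 each) and was not called (DESeq2 adjusted p = 0.315). Cenpp shares 7 exon bases with Aspn and 0 with Ecm2, Omd and Ogn. Gm15851, annotated antisense to Prelp with 350 shared exon bases, averaged 47.0 ± 42.0 and 67.9 ± 46.9 normalised counts (SD, n = 4 each). Scp2 overlaps Podn on the same strand with 0 shared exon bases and had a mean of 20.7 in GFP- and 23.2 in GFP+ libraries.

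Other genes of the family were examined next. Of Kera, Epyc, Optc, Chad, Nyx, Podnl1, Tsku and Chadl, 3 of 8 were tested and 0 were called, beside 9.42% of all genes tested. The 3 log2 fold changes were -0.28 ± 0.34 for Tsku, -0.80 ± 0.83 for Chadl and 2.23 ± 1.34 for Epyc (SE). Their median of -0.28 rests on so few genes that it does not describe the rest of the family. Tsku, whose product binds growth factors of several families, averaged 279 ± 124 normalised counts in GFP- against 233 ± 38.8 in GFP+ libraries (SD, n = 4 each). Chadl had 48.0 ± 31.0 and 25.8 ± 17.7, and Epyc, a class III gene of cartilage, 4.92 ± 4.57 and 18.0 ± 14.5 (SD, n = 4 each). Kera, Optc, Chad, Nyx and Podnl1 had at most 39 reads over the 4 libraries of a group.

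Of 39 tested genes that build the sugar chains of these proteins, in 3 lists, 4 were called in either direction, or 10.3% beside 9.42% of all genes tested. Of 18 genes for the linker sugars and the sugar supply, 0 were called higher and 1 lower, with a median log2 fold change of 0.10. Xylt1, which starts the chain on the core protein, and Ugdh, which makes its glucuronic acid donor, had log2 fold changes of 0.09 and 0.25 and were not called. Bpnt1, a phosphatase gene of sulfate metabolism, fell from a mean of 355 ± 76.8 to one of 222 ± 32.9 (normalised counts, SD, n = 4 each), or by 0.71 on the log2 scale, with DESeq2 adjusted p = 0.0316 and edgeR adjusted p = 0.159. That call was lost in 6 of the 8 fits that each left out 1 library, all except those without GFP+ replicate 2 or GFP- replicate 3.

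Of 14 tested genes for chondroitin and dermatan sulfate synthesis, 1 rose and 1 fell, with a median of 0.23. Dse, the epimerase that turns chondroitin into dermatan sulfate, had 1593, 1314, 1406 and 1106 normalised counts in GFP- and 2094, 1946, 2151 and 1903 in GFP+ replicates, without overlap. Its log2 fold change was 0.58 ± 0.16 (SE), at DESeq2 adjusted p = 0.00644, and without GFP+ replicate 3 the adjusted p was 0.0534. Chsy3, a chondroitin polymerising enzyme, had 1732 to 3321 normalised counts in GFP- against 179 to 834 in GFP+ libraries, for a log2 fold change of -2.06 ± 0.43 (SE) and DESeq2 adjusted p = 7.69e-05. With the melanocyte score as a covariate its value was 0.11 ± 0.52 (SE), of the opposite sign, and was not called (DESeq2 adjusted p = 1.00). Of 7 tested genes for keratan sulfate synthesis and tyrosine sulfation, 1 rose and 0 fell, with a median of -0.14. Tpst1, a Golgi enzyme that sulfates tyrosines and whose known substrates include several of these proteoglycans, rose from a mean of 459 ± 47.1 to one of 848 ± 97.1 (normalised counts, SD, n = 4 each), or by 0.88 on the log2 scale, with DESeq2 adjusted p = 4.16e-05.

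Collagens on which the proteoglycans lie were measured next. Of 13 genes for fibrillar and fibril-associated collagens, 4 rose and 1 fell (4.66% and 4.76% of all genes tested), with a median log2 fold change of 0.39. Col1a1 was not called, with 118404 ± 38766 normalised counts in GFP- against 144689 ± 10025 in GFP+ libraries (SD, n = 4 each) and a log2 fold change of 0.29 (DESeq2 adjusted p = 0.557). Col6a3 and Col3a1 rose, with log2 fold changes of 0.99 and 0.80 (DESeq2 adjusted p = 0.000144 and 0.0343), as did Col14a1, with 0.39 (DESeq2 adjusted p = 0.0439). Col5a2, named after its value was seen, was the fourth, with 0.68. Col11a1, which had 10.99 to 63.1 normalised counts in GFP- against 1.67 to 6.71 in GFP+ libraries, fell by 3.23 on the log2 scale (DESeq2 adjusted p = 0.00238). The edgeR test called 1 collagen higher and 0 lower. Col14a1 was lost in 7 of the 8 fits that left out 1 library, Col5a2 in 6 and Col3a1 in 4. The count of 4 dropped to 1 or 2 without GFP- replicate 1, GFP- replicate 3 or any of the 4 GFP+ libraries, and Col11a1 was not called without GFP- replicate 2.

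Of 21 tested genes for ligands and receptors that bind these proteoglycans, 4 rose and 1 fell, beside 4.66% and 4.76% of all genes tested, with a median log2 fold change of 0.07 (-0.0082 over all genes tested). Egfr, a receptor tyrosine kinase to which decorin binds, had 4028 to 7636 normalised counts in GFP- against 10117 to 15075 in GFP+ libraries, for a log2 fold change of 1.10 ± 0.23 (SE) and DESeq2 adjusted p = 6.54e-05. Met, another kinase bound by decorin, went the other way, with 4507, 4470.4, 2747 and 6284 normalised counts in GFP- and 865, 889.9, 526 and 1398 in GFP+ replicates. Its log2 fold change was -2.29 ± 0.31 (SE), at DESeq2 adjusted p = 1.02e-10. Within GFP- cells Met was highest in replicate 4 and lowest in replicate 3, as was the melanocyte sum (89857 and 30358), and in GFP+ cells both were highest in replicate 4, while Met was lowest in replicate 3 and the sum in replicate 1. With the melanocyte score as a covariate the Met value was -1.11 ± 0.51 (SE) and was not called (DESeq2 adjusted p = 0.818). Lrp1, an endocytic receptor, rose with a log2 fold change of 0.86 (DESeq2 adjusted p = 5.04e-05). C4b, a complement gene named after its value was seen, rose by 0.93. The TGF-β ligand genes Tgfb1, Tgfb2 and Tgfb3 had log2 fold changes of -0.23, 0.03 and 0.10 and were not called. For the Toll-like receptors, Tlr2 had 0.98 with an interval of -0.00027 to 1.95 and Tlr4 0.19, and neither was called (DESeq2 adjusted p = 0.239 and 0.628).

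Of 15 tested genes for proteases that process or cut these proteoglycans, with their enhancers, 5 rose and 1 fell, where 4.66% and 4.76% of all genes tested did, and the median log2 fold change was 0.54. Mmp3, stromelysin, which cleaves decorin and other matrix proteins, had 1909, 1746, 2329 and 1449 normalised counts in GFP- and 6606, 7038, 7091 and 7615 in GFP+ replicates, far from overlap. Its log2 fold change was 1.95 ± 0.17 (SE), at DESeq2 adjusted p = 1.42e-26. Pcolce, an enhancer of procollagen processing, had 2163 to 2362 normalised counts in GFP- against 4096 to 5632 in GFP+ libraries, for a log2 fold change of 1.12 and DESeq2 adjusted p = 1.02e-10. Adamts5 and Adamts1, proteases that cut large proteoglycans, rose with log2 fold changes of 0.75 and 0.93 (DESeq2 adjusted p = 9.86e-06 and 0.000326). Bmp1, which removes the propeptide of biglycan, had 0.20 and was not called. Pcolce2 (0.54, rose) and Mmp9 (-2.47, fell) were named after their values were seen. The Pcolce2 call was lost under edgeR (edgeR adjusted p = 0.0566) and in the DESeq2 fits without replicate 3 of GFP+ and without replicate 1 or 2 of GFP-.

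Among core proteins of other proteoglycans, 8 of 21 tested genes rose and 1 fell, against 4.66% and 4.76% over the whole table, with a median log2 fold change of 0.66. Vcan, the large chondroitin sulfate proteoglycan versican, had 7087, 6946, 7065 and 3505 normalised counts in GFP- and 10164, 9212, 11079 and 10702 in GFP+ replicates, for a log2 fold change of 0.74 ± 0.23 (SE) and DESeq2 adjusted p = 0.0201 (edgeR adjusted p = 0.0577). Without GFP+ replicate 3 or 4 the DESeq2 adjusted p of Vcan was 0.0848 or 0.0508. Prg4, the lubricating proteoglycan of joints, had 246, 307, 999.8 and 369 in GFP- and 2232, 2087, 2755 and 2056 in GFP+ replicates, for a log2 fold change of 2.31 ± 0.37 (SE) and DESeq2 adjusted p = 7.90e-08. Col18a1, a basement membrane collagen with heparan sulfate chains, and Spock2 (testican) rose with 1.27 and 1.77 (DESeq2 adjusted p = 3.66e-07 and 0.000643). Gpc1, a heparan sulfate proteoglycan of the cell surface, fell by 1.42 on the log2 scale (DESeq2 adjusted p = 6.39e-06). Its GFP- libraries ran from 934 in replicate 3 to 2174 in replicate 4, the libraries with the lowest and highest melanocyte sums among GFP- cells. In GFP+ cells it was highest in replicate 1 (747), where that sum was lowest (5928), and stood at 665 in replicate 4, where the sum was highest (15522). With the melanocyte score as a covariate the Gpc1 value was -1.07 ± 0.55 (SE) and was not called (DESeq2 adjusted p = 0.955). Of the other genes called lower in these lists, Bpnt1 (-0.13) and Col11a1 (-2.15) were, like Chsy3, not called in that fit, at DESeq2 adjusted p = 1.00 each, while Mmp9 was (-4.69, DESeq2 adjusted p = 0.0380). The part of melanocyte transcripts in these lower values cannot be told apart from that of the group. Over the 8 lists 23 genes were called higher and 6 lower. With libraries scaled to the fibroblast genes the counts were 2 and 11, the 2 being Mmp3 and Prg4. In that fit 0.612% of 13736 genes tested were called higher, and the median log2 fold change of all genes was -0.68. Lower calls there were thus not particular to these lists, and collagen genes that helped to set the scale are among the genes counted.

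**Figure D5:**
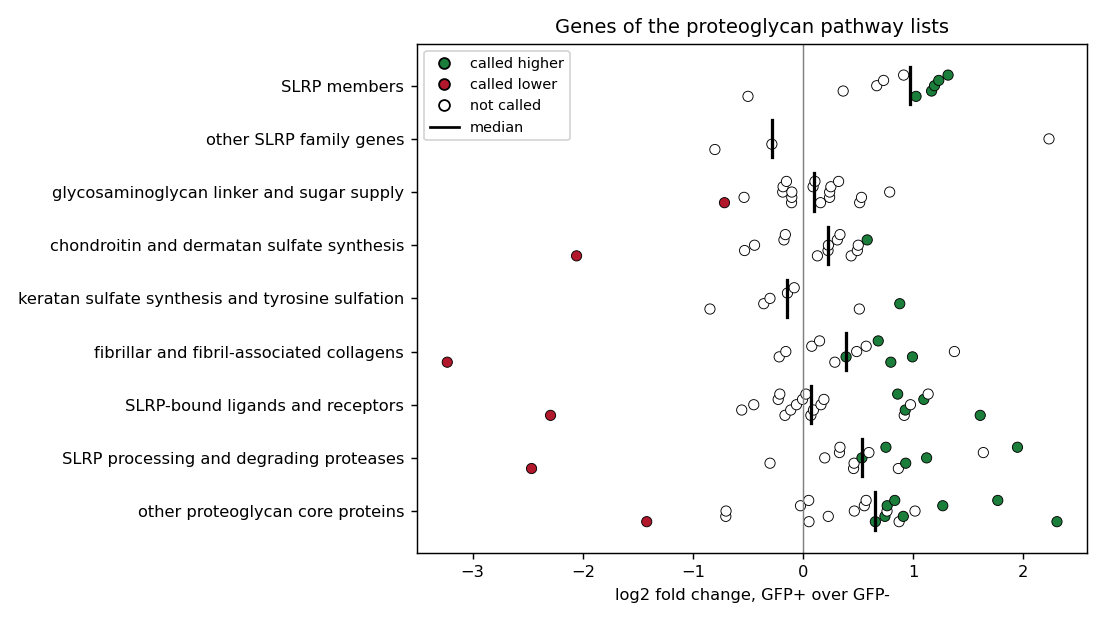
Log2 fold change, GFP+ over GFP-, of each tested gene of the 10 proteoglycan genes (top) and of the 8 lists around them. Green dots are genes called higher, red dots genes called lower, open dots genes not called, and black lines the median of each list. The medians run from -0.28 for the other family genes, of which only 3 were tested, to 0.97 for the 10 members, beside -0.0082 for all genes tested.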

How the data were processed

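The 8 libraries were grouped by the GFP state in their labels. According to the study's methods and the submitters' processing notes, the authors trimmed reads with cutadapt 3.4, mapped them to GRCm38 with STAR 2.7.3a and assigned them to Ensembl genes by strand with featureCounts 2.0.1. The authors deposited raw read counts per gene and library. The deposited normalised score, the count divided by the authors' size factor and rounded, was used only to check the size factors computed here, which were equal. The authors' own fold changes and p-values in the table were not used. Per-sample columns left unused numbered 0.

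DESeq2 1.42.0 (R 4.3.3, default settings) was run on the 29043 genes that had a read in at least 1 library, in a model holding just the group. The study's methods name DESeq2 with default normalisation and dispersions and do not list the model's terms. Adjusted p-values are Benjamini-Hochberg values over the whole table, and genes under 0.05 were called. Alternatives were edgeR 4.0.16 (quasi-likelihood), limma voom 3.58.1, other size factors, filters and thresholds, a melanocyte score as a covariate, the replicate number as a block, and each library left out in turn. Ratios used raw counts plus 0.5. The code was tested on simulated data. Replicates of a group differed beyond sampling noise in all 12 pairs. Nothing in the labels says that a shared replicate number marks a shared mouse or day, so the libraries were not taken as paired. Same-number correlations ran from -0.15 to 0.24, which with 4 libraries per group cannot decide whether they were. The fit with the number as a block is given below.

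Gene models came from GENCODE M21, which held 53706 of the 53801 identifiers (99.8%), and promoters from RefSeq. The members, lists and tests were chosen with earlier results of these data known. Genes named were the 10 members, the other family genes, the 4 called genes of each list with the smallest adjusted p, a few preset genes of the pathway and annotated neighbours. Genes outside this rule that were picked for their values are marked in the text, and genes used for sorting or scaling are named as such. The values of 1 gene that the rule names are not reported here.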

Additional observations from a re-analysis of the deposited data

Results flagged for a closer look

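Among 28 groups of 4 libraries in which the values of the members and their ratios were examined, 2 held a library far from the other 3, where chance gives about 1 in 20. For Lum, GFP+ replicate 2 had 8232 normalised counts and the other GFP+ libraries 9964 to 10307, so that the gap took 0.835 of the group's range. The same library was the lowest of its group for 9 of the 10 members. For the log2 ratio of Fmod to Lum, GFP+ replicate 1 stood at -13.8 and the other GFP+ libraries between -8.96 and -8.44, a gap of 0.904 of the range, since that library held 0 reads of Fmod.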

How the results depend on the processing

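Each member was fitted under 17 alternatives. The calls of Dcn, Bgn, Lum, Ogn and Podn held under 15 of them and were lost under 2. With libraries scaled to 13 fibroblast genes their log2 fold changes were 0.34, 0.61, 0.55, 0.61 and 0.52 (DESeq2 adjusted p of 0.430, 0.134, 0.136, 0.160 and 0.182), and 0 members were called. Aspn, Prelp and Ecm2 turned to -0.0906, -0.238 and -0.0836. With the melanocyte score as a covariate the 5 values were 0.80, 1.04, 1.14, 0.93 and 0.54 (DESeq2 adjusted p of 0.431, 0.765, 0.0889, 0.464 and 1.00), and again 0 members were called. Aspn was called under limma voom (0.85), with the replicate block (0.71) and without GFP- replicate 3 (0.91), which gave 6 members called, and its values without 1 library ran from 0.52 to 0.91. Fmod was positive under limma voom (0.32) and ran from -0.89 to 0.86 without 1 library. The causes were not tested.

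Among all genes tested, 712 were called higher and 727 lower. The counts were 405 and 327 (732) with edgeR, 22 and 26 (48) with the melanocyte covariate, 84 and 2432 (2516) scaled to fibroblast genes, 419 and 425 (844) at an adjusted p under 0.01, and 374 higher of 924 where the log2 fold change also had to reach 1 in size. Without 1 library they ran from 460 (GFP+ replicate 3) to 937 higher, from 469 (GFP- replicate 4) to 900 lower and from 969 to 1837 in all. Over the 8 lists, 23 higher and 6 lower became 2 and 1 with the covariate and 2 and 11 with the fibroblast scaling, and 17 to 23 and 4 to 7 without 1 library.

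With the replicate block 755 genes were called higher and 737 lower, and the Aspn to Ogn difference of -0.62 had an exact p of 0.125, the smallest that 4 pairs allow. Of the GFP- libraries 2 of 4 correlated best with their own number. Beyond Aspn, the block changed no call of a member. Without 1 library the Aspn to Ogn difference ran from -0.72 to -0.47 with an exact p of 0.0571, the smallest possible there. With the longest transcript as the length, the levels in GFP+ cells were 9403 per kilobase for Dcn, 3342 for Bgn and 317 for Podn. Depth limits the values of Fmod, the member with the fewest reads, since 3 reads are worth 33.0 normalised counts in GFP- replicate 3 and 1.01 in GFP+ replicate 4.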
